A study of Mus musculus with 12 samples.

Results

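Cathepsins A, B, C, D, E, K, L, S, and Z and legumain are proteases, most of them of the lysosome. The transcripts of their 10 genes (Ctsa, Ctsb, Ctsc, Ctsd, Ctse, Ctsk, Ctsl, Ctss, Ctsz, and Lgmn) were followed through total RNA sequencing of 12 mouse livers. They were taken by gene symbol from the 40551 genes counted, by a rule that uses no measured value though it was set with earlier results of these data known, and all 10 were among the 15070 genes that passed the filter on low counts. Livers came from 4 genotypes with 3 mice each. WT mice carry no deletion. Mcl1 KO mice, the Mcl1 Δhep mice of the study, combine floxed Mcl1 with a Cre transgene under the albumin promoter, so the antiapoptotic gene Mcl1 is lost in hepatocytes and kept in the other cells of the liver. Sting1 KO mice (Sting1-/-) lack the DNA-sensing adaptor STING in the germ line, and Mcl1 Sting1 DKO mice carry both changes. Mice of WT and Mcl1 KO genotype were 2 months old, and the age of the sequenced Sting1-deleted mice is not given in the sources used here. Both sexes were used. Nothing but the sample names separates the 3 livers of a group, so p-values measure the spread between these samples.

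Lysosomal proteases are made as inactive precursors, delivered to the lysosome by sorting receptors, and activated in its acidic lumen. Most cathepsins are cysteine proteases (B, C, K, L, S, and Z), cathepsins D and E are aspartic proteases, cathepsin A is a serine carboxypeptidase, and legumain cleaves after asparagine and helps to process other cathepsins. In the liver, hepatocytes and Kupffer cells both hold many lysosomes, and cathepsin S is best known from antigen-presenting cells, where it trims the invariant chain of MHC class II.

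The libraries held 28826367 to 45266387 counted reads. Mcl1 had 18.1 to 34.0 CPM (reads of a gene relative to the library's total, with TMM scaling) in the 6 libraries of Mcl1-deleted livers and 77.0 to 104 CPM in the other 6. Sting1 transcript did not separate WT libraries (2.53, 2.43, and 2.11 CPM) from those labelled Sting1 KO (1.16, 1.72, and 2.70 CPM; log2 difference −0.34, adjusted p = 0.998). In livers without hepatocyte Mcl1 the Sting1 values did not overlap, with 4.59, 6.0, and 3.67 CPM in Mcl1 KO and 1.90, 2.53, and 2.33 CPM in Mcl1 Sting1 DKO libraries (log2 difference −1.07, adjusted p = 0.134). The Mcl1 KO libraries were also above WT (1.01, adjusted p = 0.0324) and the Mcl1 Sting1 DKO libraries overlapped WT, so the Sting1 groups rest on their labels. Hepatocyte markers summed to 95910 CPM or more in every library, with none of the 8 markers at 0. Further features cut across the groups: Y-linked transcripts were present in WT replicates 2 and 3 and Mcl1 Sting1 DKO replicate 1 and absent (at most 0.201 CPM) in the rest, small structured RNAs took 0.192 to 0.420% of reads in WT libraries and 0.314, 2.77, and 1.55% in Mcl1 KO libraries, and Mcl1 KO replicate 3 held 1373 CPM of skeletal muscle markers against at most 7.68 CPM elsewhere.

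The 10 genes spanned a wide range of levels. Per transcript length (TPM, each gene's share of reads after division by its summed exon length), Ctsd led in WT livers with a mean of 579.5 TPM, followed by Ctsl with 374.1, Ctsb with 311.9, Ctsz with 216.0, Ctsa with 110.1, Ctsc with 67.1, Lgmn with 38.5, Ctss with 33.6, Ctsk with 1.08, and Ctse with 0.239 TPM. The WT libraries of Ctsl and Ctsb overlapped, as did those of Lgmn and Ctss, and all other neighbours in this order were separate. The order is partly a matter of the length used: with the canonical transcript of each gene, Ctsb passed Ctsl, Ctsc passed Ctsa, and Ctss passed Lgmn in WT livers. Ctsd was first and Ctsk and Ctse were last in all 4 genotypes with either length.

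**Figure D1:**
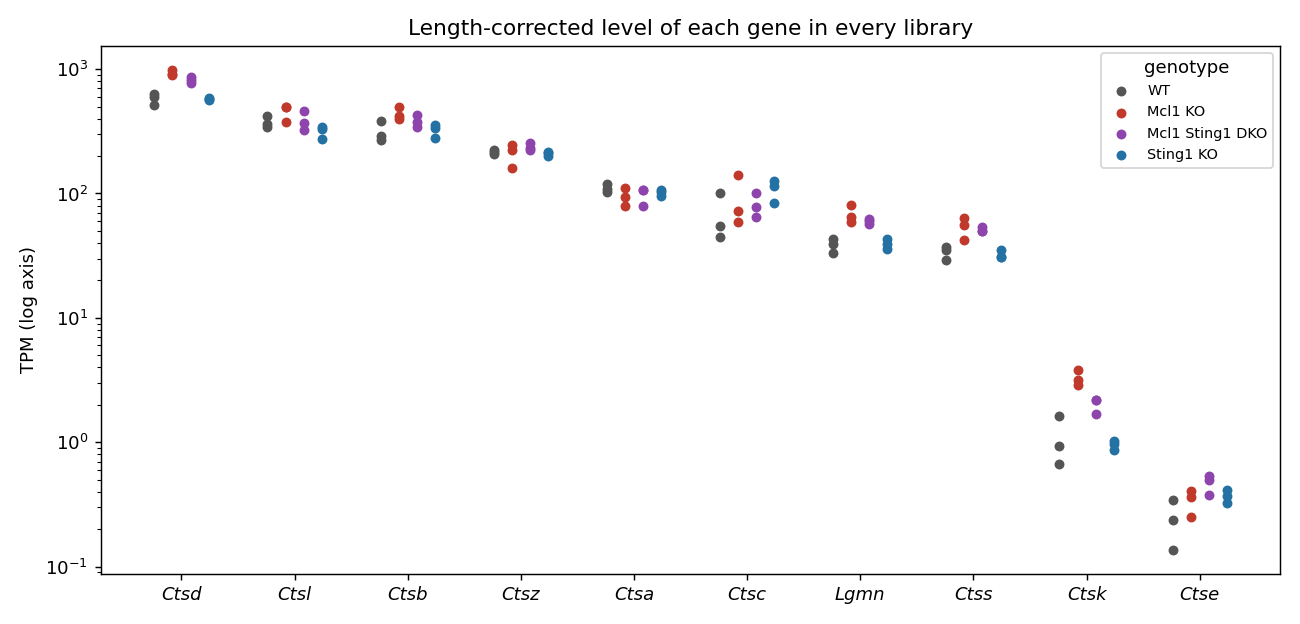
Level of each gene in TPM (log axis) in the 12 libraries, with genes ordered by their WT mean and colours for genotype. Each point is 1 liver; Ctsd lies highest, at a WT mean of 579.5 TPM, and Ctse lowest, at 0.239 TPM.

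Summed over the 10 genes, cathepsin and legumain transcripts came to 2629, 2232, and 2454 CPM in the WT libraries and to 3188, 3685, and 3264 CPM in the Mcl1 KO libraries. Mcl1 Sting1 DKO libraries had 2830, 2734, and 2631 CPM, and Sting1 KO libraries 2410, 2657, and 2510 CPM. All 3 Mcl1 KO sums were above all others. Ctsd made up 32.4 to 34.9% of the summed TPM in WT, 37.6 to 41.7% in Mcl1 KO, 37.7 to 39.4% in Mcl1 Sting1 DKO, and 32.0 to 35.3% in Sting1 KO livers, so its share did not overlap between livers with and without Mcl1 in hepatocytes.

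The first comparison, Mcl1 KO with WT, asks what loss of hepatocyte Mcl1 does with Sting1 intact. Of the 10 genes, 5 rose and 0 fell (adjusted p under 0.05 in edgeR's quasi-likelihood test), against 20.2% of all tested genes called, 10.8% higher and 9.43% lower, and DESeq2 called the same 5 genes (25.9% of all genes). The median log2 fold change of the 10 genes was 0.55, and that of all tested genes −0.0049. Those that rose were the cysteine cathepsins Ctsk, Ctss, and Ctsb, the aspartic cathepsin Ctsd, and Lgmn. For 6 genes the Mcl1 KO libraries were all above the WT libraries (16.2% of all genes), and for 1 they were all below (17.1%).

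Ctsk encodes cathepsin K, a collagen-degrading protease best known from osteoclasts (chromosome 3, 95406178 to 95416732, GRCm39, plus strand). It had 1.27, 0.564, and 0.793 CPM in WT libraries and 2.23, 3.64, and 2.69 CPM in Mcl1 KO libraries. The lowest Mcl1 KO value lay above the highest WT value. Its log2 fold change was 1.69 ± 0.32 (SE, adjusted p = 0.00555), a fold of 3.23, on 19 to 48 reads per WT library and 85 to 119 per Mcl1 KO library. Mcl1 Sting1 DKO libraries had 1.67, 1.24, and 1.78 CPM, which reached down to the highest WT library, and Sting1 KO libraries had 0.844, 0.876, and 0.748 CPM.

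Ctss, which encodes cathepsin S (chromosome 3, 95433963 to 95463717, plus strand), lies beside Ctsk and on the same side of Mcl1. WT libraries had 48.9, 43.9, and 56.0 CPM, and Mcl1 KO libraries 81.0, 96.1, and 70.4 CPM. These groups did not overlap, and Ctss rose by a log2 fold change of 0.73 ± 0.14 (adjusted p = 0.00663), a fold of 1.66. Mcl1 Sting1 DKO libraries, at 69.1, 71.1, and 73.9 CPM, sat at the lower edge of the Mcl1 KO range, whereas Sting1 KO libraries had 47.7, 47.4, and 54.6 CPM, within the WT range.

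Because the start of Mcl1 lies 159.8 kb from that of Ctsk and 132.1 kb from that of Ctss, the genes around the targeted locus were counted as well. Of 33 tested genes that start within 500 kb of Mcl1, 8 were called, 5 higher and 3 lower, with a median log2 fold change of 0.045. Ctsk and Ctss are themselves among the 33 and the 8. Of all tested genes, 20.2% were called, 10.8% higher and 9.43% lower. Besides Ctsk and Ctss, the higher genes included Plekho1 (1.18 ± 0.22, adjusted p = 0.00533) and Cdc42se1 (0.77 ± 0.15, adjusted p = 0.00694), and the lower genes included Cers2 (−0.68 ± 0.17, adjusted p = 0.0188). Whether the position beside the altered locus has a part in the values of Ctsk and Ctss was not tested.

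Lgmn encodes legumain (chromosome 12, 102359122 to 102414682, minus strand). Its WT libraries had 85.5, 78.0, and 103 CPM and its Mcl1 KO libraries 161, 175, and 153 CPM, a rise of 0.88 ± 0.14 on the log2 scale (adjusted p = 0.00246) and a fold of 1.84. With 131, 130, and 131 CPM, the Mcl1 Sting1 DKO libraries fell between those 2 groups without touching either, and the Sting1 KO libraries had 87.7, 103, and 95.7 CPM. Of the 5 genes that rose, Lgmn had the smallest adjusted p.

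Ctsd encodes cathepsin D, the main aspartic protease of lysosomes (chromosome 7, 141929646 to 141941775, minus strand). WT livers had 456, 407, and 475 CPM, Mcl1 KO livers 658, 824, and 777 CPM, Mcl1 Sting1 DKO livers 594, 600, and 591 CPM, and Sting1 KO livers 474, 455, and 463 CPM. As with Lgmn, the Mcl1 Sting1 DKO libraries lay between the WT and the Mcl1 KO libraries and overlapped neither. The log2 fold change in Mcl1 KO against WT was 0.76 ± 0.13 (adjusted p = 0.00455), a fold of 1.69. Reads of Ctsd are uncertain by sharing: Gm49369 on the same strand covers 29.2% of its exon bases, had a mean of 279.0 CPM, and followed Ctsd across the 12 libraries (Pearson's r = 0.998).

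Ctsb, for cathepsin B, an abundant cysteine protease (chromosome 14, 63358384 to 63383372, plus strand), was the weakest of the 5. It had 768, 589, and 633 CPM in WT, 923, 1042, and 957 CPM in Mcl1 KO, 757, 817, and 726 CPM in Mcl1 Sting1 DKO, and 626, 794, and 763 CPM in Sting1 KO livers. Only the Mcl1 KO libraries were set apart from the other groups. The log2 fold change was 0.55 ± 0.15 (adjusted p = 0.0272), a fold of 1.47.

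**Figure D2:**
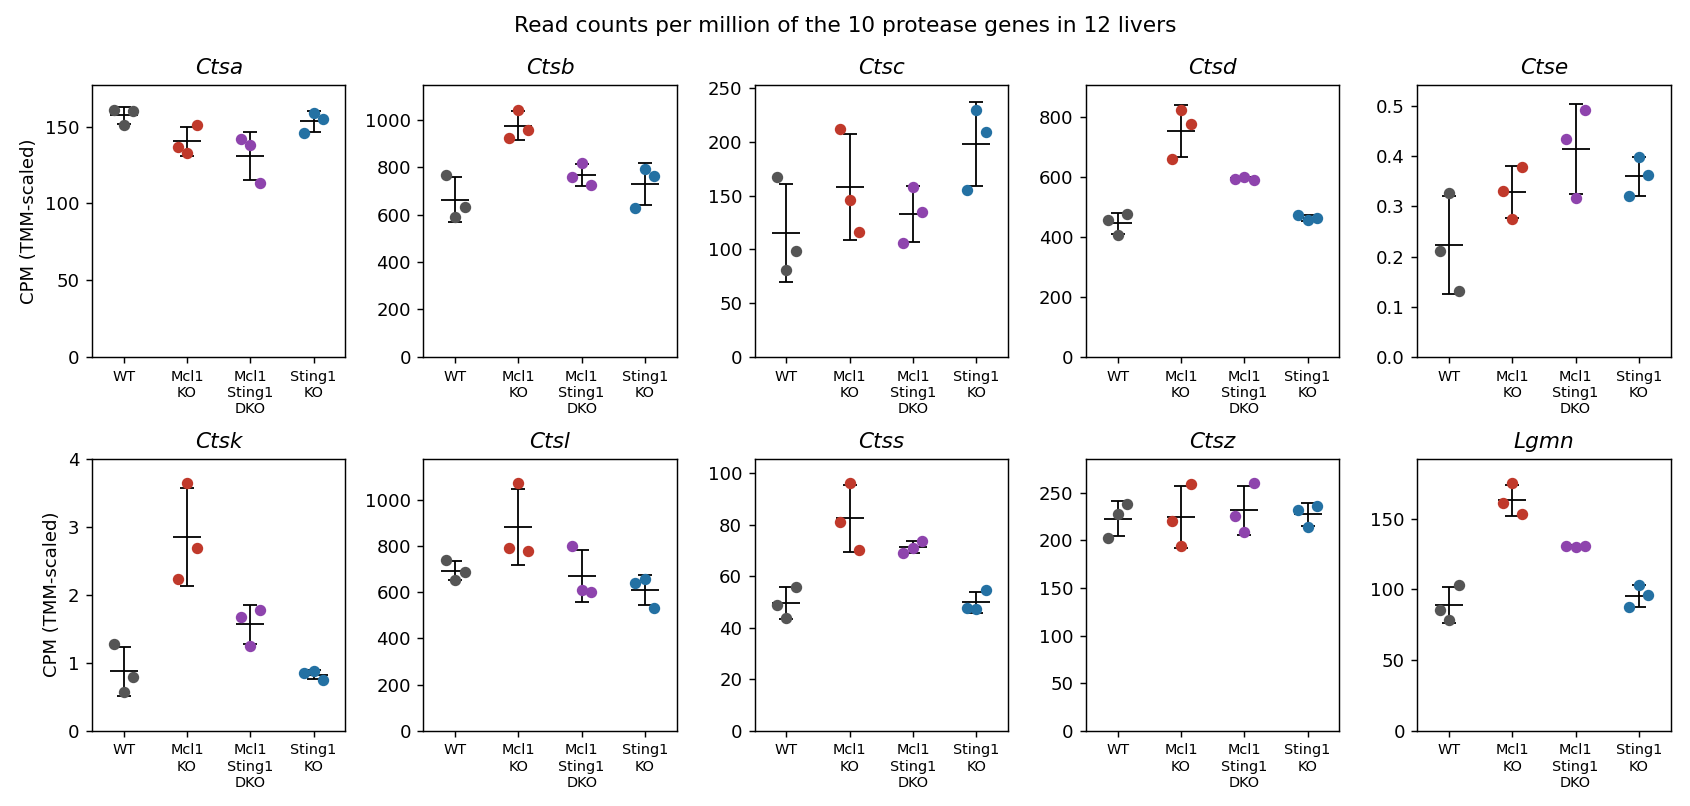
CPM (TMM-scaled, axes from 0) of each of the 10 genes in the 12 libraries, by genotype; points are livers, and the bar and whiskers are the mean ± SD (n = 3). Ctsk, Ctss, Ctsd, Lgmn, and Ctsb are higher in all Mcl1 KO livers than in all WT livers, and Ctsz covers 194 to 260 CPM across the Mcl1 KO and Mcl1 Sting1 DKO livers.

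The other 5 genes were not called. Ctsl encodes cathepsin L, a broad endopeptidase (chromosome 13, 64507151 to 64518704, minus strand), and had 738, 653, and 689 CPM in WT and 793, 1071, and 780 CPM in Mcl1 KO livers. The groups did not overlap, but the log2 difference of 0.35 had a 95% interval of −0.039 to 0.73 (adjusted p = 0.176). Ctsa, for cathepsin A, which also shields β-galactosidase and neuraminidase in the lysosome (chromosome 2, 164674778 to 164682961, plus strand), had 161, 151, and 160 CPM in WT and 137, 133, and 151 CPM in Mcl1 KO livers. Its Mcl1 KO libraries lay below the WT libraries by the narrowest of margins, with a log2 difference of −0.17 and an interval of −0.45 to 0.11 (adjusted p = 0.356).

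Ctsz encodes cathepsin Z, a carboxypeptidase (chromosome 2, 174267304 to 174280832, minus strand), and its 203, 228, and 238 CPM in WT livers were interleaved with 221, 194, and 259 CPM in Mcl1 KO livers. The log2 difference was 0.0071, with an interval of −0.32 to 0.33 (adjusted p = 0.979). Ctse, for cathepsin E, known from gastric mucosa and immune cells (chromosome 1, 131566009 to 131603243, plus strand), had 4 to 18 reads in each of the 12 libraries. At that depth its log2 difference of 0.54 had an interval of −0.30 to 1.39 (adjusted p = 0.330).

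Ctsc was the most variable of the abundant genes. It encodes cathepsin C, a dipeptidyl peptidase that activates the granule proteases of neutrophils and cytotoxic lymphocytes (chromosome 7, 87927092 to 87960096, plus strand). WT libraries had 167, 80.5, and 98.6 CPM, Mcl1 KO libraries 212, 146, and 116 CPM, Mcl1 Sting1 DKO libraries 106, 158, and 135 CPM, and Sting1 KO libraries 155, 230, and 209 CPM. The lowest 3 of the 12 values, 80.5, 98.6, and 106 CPM, belong to the 3 libraries with Y-linked transcripts. In Mcl1 KO against WT, the log2 difference was 0.45 with an interval of −0.19 to 1.09 (adjusted p = 0.285), and with Y-linked expression as a covariate it was 0.058 (adjusted p = 0.908).

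Y-linked transcripts and genotype are mixed in the WT group, since 2 of its 3 libraries hold them and no Mcl1 KO library does. With Y-linked expression as a covariate, Ctsk (1.49, adjusted p = 0.028), Ctss (0.72, adjusted p = 0.0324), Lgmn (0.91, adjusted p = 0.0111), and Ctsd (0.74, adjusted p = 0.0238) remained called and Ctsb did not (0.44, adjusted p = 0.134). Among libraries without Y-linked transcripts, WT replicate 1 stands alone and is assumed to vary like the other groups. There the log2 differences were 1.16 for Ctsk, 0.74 for Ctss, 0.92 for Lgmn, 0.71 for Ctsd, and 0.33 for Ctsb. Calls in this fit, with 1 WT library, are given below with the other alternatives. The small structured RNAs moved with the group too: with their share as a covariate only Lgmn was called (0.76, adjusted p = 0.0376), and 417 of 15070 genes in all, while the log2 differences were 1.39 for Ctsk (adjusted p = 0.115), 0.57 for Ctss (adjusted p = 0.109), 0.54 for Ctsd (adjusted p = 0.0803), and 0.47 for Ctsb (adjusted p = 0.229). With the first Mcl1 KO library as the whole group, whose share was within the WT range and which is then assumed to vary like the other groups, Ctss (0.71, adjusted p = 0.0331) and Lgmn (0.86, adjusted p = 0.0217) were called. In that fit Ctsk was at 1.34 (adjusted p = 0.0843), Ctsd at 0.56 (adjusted p = 0.0551), and Ctsb at 0.48 (adjusted p = 0.188), not called.

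Leaving out each of the 12 libraries in turn kept the calls of Ctsd, Ctsk, Ctss, and Lgmn in 12 of 12 fits. Ctsb was called in 9 of 12 and lost its call without Mcl1 KO replicate 2 (adjusted p = 0.0898), WT replicate 2 (adjusted p = 0.11), or WT replicate 3 (adjusted p = 0.0922). Mcl1 KO replicate 3, which carries the muscle transcripts, was not needed for any of the 5 calls.

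The second comparison, Mcl1 Sting1 DKO with Mcl1 KO, asks what removing Sting1 changes in livers without hepatocyte Mcl1. No member was called by edgeR, which called 0% of all tested genes here (0 of 15070), and DESeq2 called none of the 10 and 4.91% of genes. At an unadjusted p under 0.05, edgeR counted 5 members (Ctsk, Ctsd, Lgmn, Ctsb, and Ctsl) and 20.6% of all genes. The Mcl1 Sting1 DKO libraries of 4 genes (Ctsk, Ctsd, Lgmn, and Ctsb) lay wholly below the Mcl1 KO libraries (9.28% of all genes did), and 0 lay wholly above (8.97%). The median log2 difference of the 10 genes was −0.28, and that of all genes −0.0021.

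For Ctsk the log2 difference was −0.87, with a 95% interval of −1.53 to −0.20 (adjusted p = 0.164). Ctsd differed by −0.34 (interval −0.63 to −0.048, adjusted p = 0.19), Ctsb by −0.34 (−0.68 to −0.012, adjusted p = 0.231), and Lgmn by −0.32 (−0.61 to −0.027, adjusted p = 0.212). Ctsl had 802, 610, and 599 CPM in Mcl1 Sting1 DKO livers, so 1 library overlapped the Mcl1 KO group, and differed by −0.40 (−0.78 to −0.0096, adjusted p = 0.235). Ctss differed by −0.21 (−0.52 to 0.10, adjusted p = 0.413), Ctsc by −0.25, Ctsa by −0.095, Ctsz by 0.046, and Ctse by 0.33, each with an interval that spans 0.

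One library decides the count of calls in this comparison. Without Mcl1 KO replicate 1, edgeR called 3108 of 15357 genes (20.2%) and 2 of the members, Ctsd at −0.42 (adjusted p = 0.0304) and Ctsk at −1.01 (adjusted p = 0.0498). Over the 12 fits that left out a library, the log2 difference of Ctsd ran from −0.42 to −0.27 and that of Ctsk from −1.01 to −0.65. Without Mcl1 KO replicate 1, the Mcl1 KO group keeps replicates 2 and 3, with 2.77 and 1.55% small structured RNAs. Mcl1 Sting1 DKO libraries had 0.621, 0.544, and 0.490%. No member had an unadjusted p under 0.05 in edgeR without Mcl1 KO replicate 2 or without Mcl1 Sting1 DKO replicate 2. The same held with the small RNA share as a covariate. Over all genes, 1488 of 15304, 2414 of 15392, and 1854 of 15070 had such a p in these fits, in that order. With that covariate, the log2 difference was −0.23 for Ctsd and −0.71 for Ctsk.

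**Figure D3:**
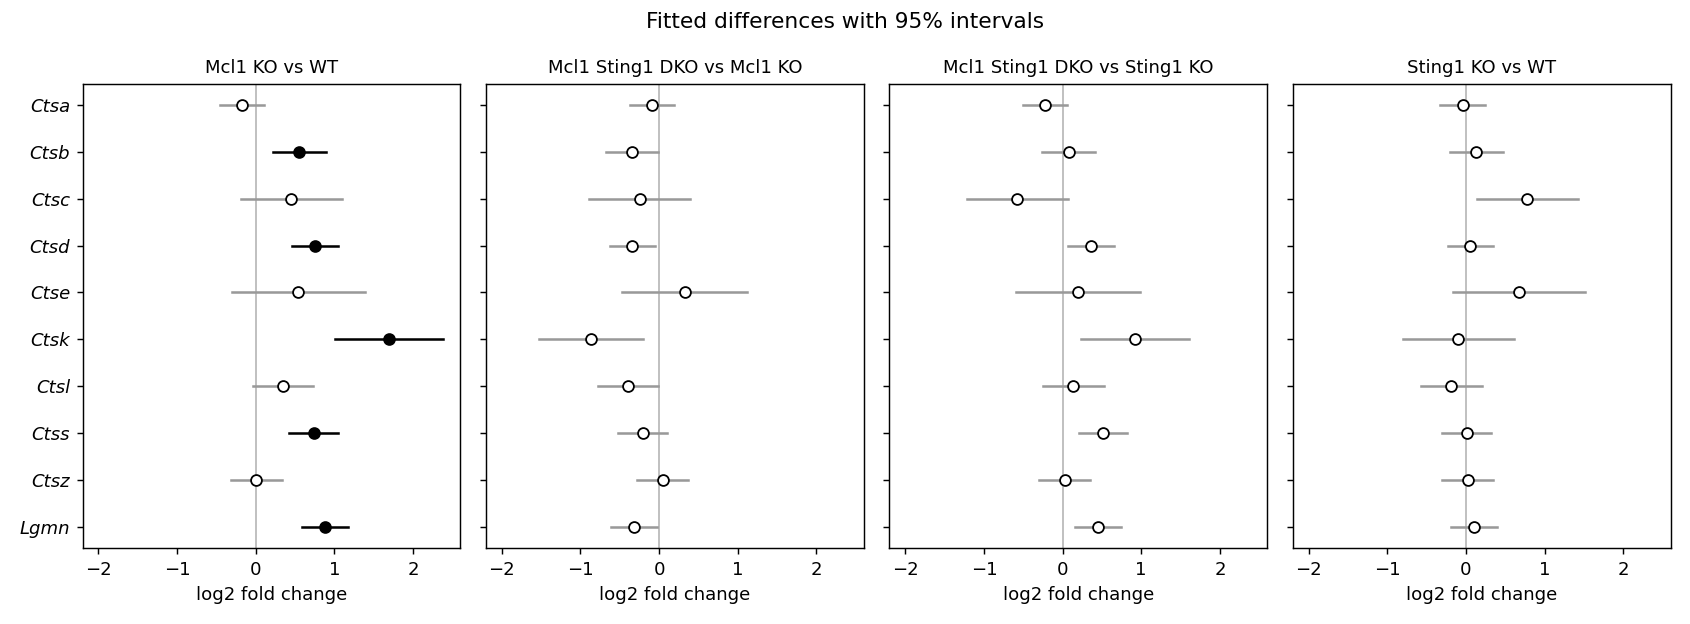
Log2 fold change of each gene with its 95% interval in 4 comparisons (edgeR, 12 libraries in 1 fit); filled points passed an adjusted p of 0.05 and open points did not. The 5 filled points, all in Mcl1 KO against WT, run from 0.55 for Ctsb to 1.69 for Ctsk.

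Mcl1 Sting1 DKO against Sting1 KO livers show Mcl1 deletion where both groups lack Sting1. Neither an increase nor a decrease of a member passed the test (0.803% of all genes were called), and 4 members had an unadjusted p under 0.05, as did 11.3% of genes. Ctsk, Ctss, Ctsd, and Lgmn had all Mcl1 Sting1 DKO libraries above all Sting1 KO libraries (11.5% of genes did), and Ctsa had them all below (10.8%), with 142, 138, and 113 against 146, 159, and 155 CPM. The log2 differences were 0.92 for Ctsk (adjusted p = 0.26), 0.51 for Ctss (adjusted p = 0.144), 0.45 for Lgmn (adjusted p = 0.176), 0.36 for Ctsd (adjusted p = 0.309), and −0.22 for Ctsa (adjusted p = 0.587). DESeq2 called Ctss (0.52, adjusted p = 0.0291) and Lgmn (0.46, adjusted p = 0.0274) in a fit that called 3.16% of genes. The median over the 10 genes was 0.17, beside −0.0089 over all genes.

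Averaged over both Sting1 backgrounds, which sets 6 livers with Mcl1 deletion against 6 without, Ctsk (1.31 ± 0.22, adjusted p = 0.00282), Lgmn (0.67 ± 0.095, adjusted p = 0.00103), Ctss (0.62 ± 0.10, adjusted p = 0.00213), and Ctsd (0.56 ± 0.094, adjusted p = 0.00271) rose. These 4 calls stand beside 16.7% of all genes called, 9.9% higher and 6.83% lower. Ctsb had an average difference of 0.32 ± 0.11 (adjusted p = 0.0662), and the other 5 genes lay between −0.20 and 0.37. These averages use the Mcl1 KO and WT libraries of the first comparison and are not separate evidence.

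Sting1 KO against WT livers showed no called member by edgeR (0% of all genes called; DESeq2 called 0 members and 0.326% of genes), and no member had groups that did not overlap (7.06% of genes were wholly higher and 5.46% wholly lower). Ctsc was the 1 member with an unadjusted p under 0.05, as had 5.45% of genes, at a log2 difference of 0.78 with an interval of 0.13 to 1.42 (adjusted p = 0.82), and 2 of the WT libraries but no Sting1 KO library held Y-linked transcripts. With Y-linked expression as a covariate, the difference of Ctsc was 0.38, and among libraries without Y-linked transcripts 0.25. Ctsb, Ctsd, Ctsk, Ctsl, Ctss, Ctsz, Ctsa, and Lgmn lay between −0.19 and 0.13, and Ctse was at 0.68 on 4 to 15 reads.

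Whether the Mcl1 difference itself depends on Sting1 was tested with the interaction term. It was not called for any member or any gene by edgeR (0 of 15070, 14.4% at an unadjusted p under 0.05), and DESeq2 called 1.2% of genes and no member. Without Mcl1 KO replicate 1 edgeR called it for 1574 of 15357 genes, and without WT replicate 1 for 88 of 15368, with 0 members in either fit. Unadjusted p-values under 0.05 were found for 3 members: Ctsc at −1.03 (interval −1.93 to −0.12, adjusted p = 0.318), Ctsb at −0.48 (−0.95 to −0.0079, adjusted p = 0.343), and Lgmn at −0.42 (−0.84 to −0.0091, adjusted p = 0.343). Ctsk (−0.77, −1.74 to 0.20) and Ctsd (−0.40, −0.81 to 0.015) had intervals that reach past 0. In edgeR with Y-linked expression as a covariate, 0 members had an unadjusted p under 0.05 for the interaction, beside 1259 of 15070 genes. With the small RNA covariate 1 member had, beside 978 of 15070 genes. Leaving out WT replicate 2, Mcl1 Sting1 DKO replicate 1, Sting1 KO replicate 2, or Sting1 KO replicate 3 also gave 0 members. Over all genes those fits gave 1423 of 15427, 1906 of 15422, 1928 of 15386, and 1464 of 15405, in that order.

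Other genes of the lysosome and genes for cathepsin inhibitors were counted in Mcl1 KO against WT, where 10.8% of all genes were higher and 9.43% lower. Of 6 tested inhibitors of cathepsins, 4 rose and none fell: the serpins Serpina3g (1.23 ± 0.28, adjusted p = 0.0131) and Serpinb6a (1.10 ± 0.19, adjusted p = 0.00453), and the cystatins Cstb (0.98 ± 0.23, adjusted p = 0.0145) and Cst3 (0.53 ± 0.16, adjusted p = 0.0396). Of 11 other lysosomal proteases, 3 rose and 1 fell. The aspartic protease Napsa rose by 1.78 ± 0.44 (adjusted p = 0.0171), and the cysteine cathepsin Ctsf fell, with a log2 fold change of −0.66 ± 0.16 (adjusted p = 0.0149), from a mean of 31.2 to 19.8 CPM.

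The remaining lysosomal genes moved in both directions. Of 31 tested hydrolases, 4 rose and 2 fell, with a list median of 0.042; Gla, for α-galactosidase A, rose by 0.89 ± 0.21 (adjusted p = 0.0147), and Gaa, for the acid α-glucosidase of glycogen, fell (−0.67 ± 0.19, adjusted p = 0.0274). Among 15 lysosomal membrane genes 4 rose and 2 fell. Those that rose included Cd63 (2.88 ± 0.42, adjusted p = 0.00204) and the macrophage-enriched Slc11a1 (1.33 ± 0.17, adjusted p = 0.00133) and Cd68 (1.24 ± 0.22, adjusted p = 0.00481). The cholesterol exporter Npc1 fell (−0.85 ± 0.22, adjusted p = 0.0232). Summed, the 15 membrane genes were lower in Mcl1 KO livers (1607 to 1761 CPM) than in WT livers (2023 to 2333 CPM). Of 7 accessory proteins 3 rose (Cd74, Ifi30, and Grn) and none fell, and of 17 subunits of the vacuolar ATPase, which acidifies the lysosome, 3 rose and 1 fell. Sorting genes had 0 of 11 higher and 1 lower, the receptor Sort1 (−1.17 ± 0.32, adjusted p = 0.0277). Of the MiT family, transcription factors of lysosomal genes, Tfec was called higher (0.93 ± 0.28, adjusted p = 0.0382), while Tfeb (−0.14, adjusted p = 0.463), Tfe3 (0.0063, adjusted p = 0.984), and Mitf (0.46, adjusted p = 0.0609) were not.

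Markers of some, but not all, of the cells that could carry these transcripts moved with the Mcl1 KO group. In bulk liver, more cells of a type and more RNA per cell cannot be told apart. Of 17 macrophage and Kupffer cell markers, 10 rose and none fell, and none was at 0; their summed level was 716 to 1087 CPM in WT, 1329 to 1556 CPM in Mcl1 KO, 1195 to 1361 CPM in Mcl1 Sting1 DKO, and 909 to 1251 CPM in Sting1 KO livers. Of 7 monocyte markers, 5 rose (14.4 to 18.6 CPM summed in WT, 37.7 to 80.8 in Mcl1 KO, 21.7 to 27.6 in Mcl1 Sting1 DKO, and 15.6 to 19.6 in Sting1 KO livers), as did 7 of 9 stellate cell and fibroblast markers (441 to 726, 984 to 1050, 715 to 993, and 466 to 566 CPM in the same order). All 4 tested neutrophil markers of 7 listed rose (2.88 to 4.66, 9.64 to 22.2, 5.81 to 6.77, and 2.59 to 6.49 CPM), with Ly6g at 0 in WT and Sting1 KO libraries, and 3 of 7 dendritic cell markers rose (8.63 to 13.5, 14.39 to 22.03, 13.6 to 14.4, and 8.76 to 10.6 CPM), none at 0. Of 7 tested T and NK cell markers 2 rose. So did 2 of 3 tested mucosal epithelium markers, with 7 of the 10 listed at 0 in all WT libraries. That list summed to 1.35 to 11.1 CPM in WT, 4.28 to 47.3 in Mcl1 KO, 0.439 to 116 in Mcl1 Sting1 DKO, and 0.690 to 0.873 in Sting1 KO livers. Its member Tff2 had 11.5 ± 19.25 CPM (mean ± SD) in Mcl1 KO livers. Among 5 B cell, 6 cholangiocyte, 6 sinusoidal endothelial, and 5 erythroid markers 0 were called. Among 8 hepatocyte markers 1 fell, Cyp2e1. Of 6 osteoclast markers, 3 were tested and 0 called, with Calcr and Dcstamp at 0 in all WT libraries. The part of these cell types in the levels of Ctsk, Ctss, Ctsd, Lgmn, and Ctsb was not tested.

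**Figure D4:**
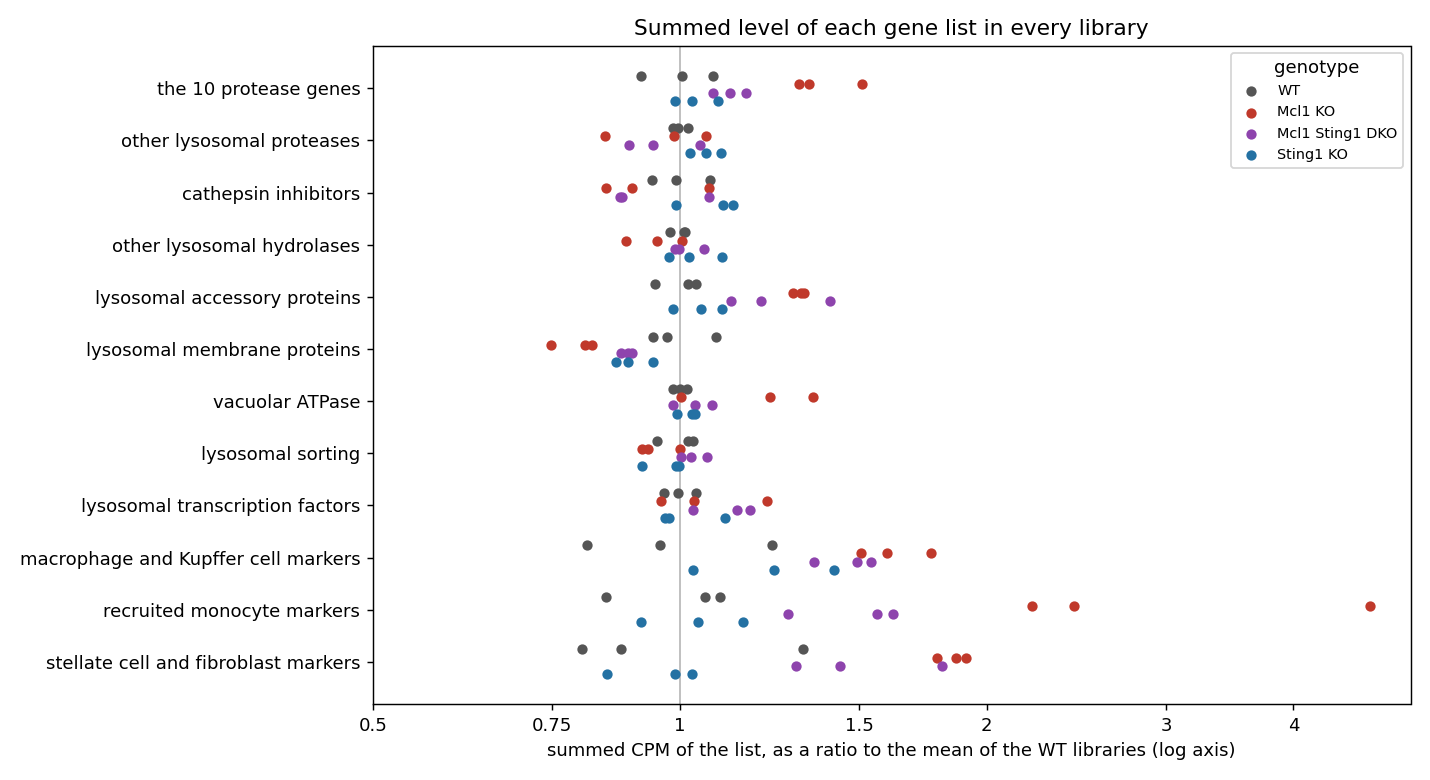
Summed CPM of each gene list in every library, as a ratio to the mean of the WT libraries (log axis); each point is 1 liver and colours mark genotype. The 10 protease genes reach ratios of 1.31 to 1.51 in Mcl1 KO livers, other lysosomal proteases 0.84 to 1.06, and macrophage and Kupffer cell markers 1.51 to 1.76.

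Across the 12 libraries, the genes that rose followed each other. On log2 CPM, Ctsd had a Pearson's r of 0.956 with Lgmn, 0.950 with Ctsk, 0.927 with Ctss, and 0.841 with Ctsb. With the genes not called, its r was 0.668 for Ctsl, 0.22 for Ctse, 0.022 for Ctsc, −0.037 for Ctsz, and −0.524 for Ctsa. These 12 points share the genotype differences given above, so the values describe the same pattern and carry no test. Among 12559 tested genes with a mean of at least 1 CPM, those most like Lgmn included Slc11a1 (r = 0.984) and Cd68 (0.982), and those most like Ctss were Vcam1 (0.972), Cyth4 (0.970), and Gpr35 (0.970). Ctsk was most like Fhl2 (0.973), Rab31 (0.959), and Flna (0.959), whereas Ctsd, after Gm49369, was most like Capg (0.985) and Lgals3 (0.981). Ctsb was most like Stk39 (0.966). Ctsl was closest to Gskip (0.953), Ctsa to Trpt1 (0.927), Ctsc to Rida (0.920), Ctsz to Foxa3 (0.850), and Ctse to Klhdc8a (0.821).

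As members rose together, the 250 bases before the canonical start of each gene were read from GRCm39 and searched on both strands for 6 motifs, beside the same windows of 13672 tested protein-coding genes. The core of the element bound by interferon regulatory factors, written as GAAA, any 2 bases, and GAAA again, was in 3 of the 10 windows, those of Ctsb, Ctsd, and Ctss, and in 3.28% of all windows. Ctsk and Lgmn, which also rose, had none. CACGTG, the E-box core, was in the window of Ctsd (7.53% of all windows), and TATAAA in that of Ctss (7.74%). The CLEAR element of lysosomal genes, the PU.1 site GAGGAAGT, and the AP-1 site TGANTCA were in 0 of 10, against 0.3, 2.16, and 4.74% of all windows. The E-box core is also the middle of the CLEAR element, and a match says only that the letters are present. The stretches below, 5′ to 3′ on the strand of the gene, show the matches in 3 of the genes that rose, with the motif letters in capitals. They lie at chr14:63359770-63359799, chr7:141941973-141942002, chr7:141941792-141941821, and chr3:95434059-95434088, outside annotated exons.
Ctsb, interferon regulatory factor element, 97 to 88 bases before the start: atctctgtgcGAAATGGAAAgagagcagac
Ctsd, interferon regulatory factor element, 217 to 208 bases before the start: gaacagagctGAAAGAGAAAaggcttaggt
Ctsd, E-box core, 34 to 29 bases before the start: tcttccttccccCACGTGacctgtatccag
Ctss, interferon regulatory factor element, 13 to 4 bases before the start: ctcataagtctttaaatGAAACCGAAAtga

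Reads of other members may also be shared with neighbours, since the sources used here do not state whether counting used strand. Exons on the opposite strand overlap Ctsz (Nelfcd, 29.2% of its exon bases), Ctsl (Gm47123, 26.1%, with 0 reads), Ctsa (Pltp, 24.3%, and Neurl2, 12.6%), and Ctsb (Fdft1, 15.4%). Mean levels were 23.5 CPM for Nelfcd, 47.4 CPM for Pltp, 1.21 CPM for Neurl2, and 178 CPM for Fdft1. How many of these reads lie in shared exons was not counted. Pearson's r with the overlapped member was 0.51 for Nelfcd, 0.40 for Pltp, 0.67 for Neurl2, and −0.57 for Fdft1. No annotated exon of another gene overlaps those of Ctsc, Ctse, Ctsk, Ctss, or Lgmn.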

How the data were processed

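Total RNA of 12 livers was sequenced on an Illumina NovaSeq. Per sample, the authors deposited counts of reads on each Ensembl gene, not normalized; the submitters' processing notes name STAR, featureCounts, and GRCm39, and versions, annotation release, and strand setting are not given in the sources used here. The labels and the methods name different RNeasy kits. In R 4.3.3, edgeR 4.0.16 (TMM, filterByExpr by genotype, glmQLFit and glmQLFTest) fitted genotype means to the 12 libraries together without covariates, and its p-values were adjusted by Benjamini-Hochberg over 15070 genes (threshold 0.05). Log CPM used a prior count of 2. TPM used exon lengths from GENCODE vM39. Alternatives were DESeq2 1.42.0, another normalization, no filter, covariates, fits with fewer libraries, and the replicate number as a block. On simulated counts for Mcl1 KO against WT (log2 change of 2), edgeR recovered 191 of 200 genes among 14851 with 5 false calls and DESeq2 191 with 27. Smaller changes, such as those of Ctsb, Ctss, Ctsd, and Lgmn, and the Y-linked and small RNA differences were not simulated. The members and gene lists were chosen with earlier results of these data known. Besides the 10 members, Mcl1, and Sting1, up to 4 genes per list were named, those with the largest change at a mean of at least 1 CPM, and for likeness up to 3 genes per member, those with the highest r. For Lgmn, 1 of these is not reported here. Tables and plots were made in Python 3.11.15 (pandas 2.3.3, matplotlib 3.10.9).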

Additional observations from a re-analysis of the deposited data

How the results depend on the processing

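In Mcl1 KO against WT, where 5 members were called, 4 were with Y-linked expression as a covariate or with only the 2 groups in the fit, 1 with the small RNA covariate, 2 with the first Mcl1 KO library alone, 0 with only libraries without Y-linked transcripts, and 4 to 5 when 1 library was left out. The fits with the first Mcl1 KO library alone and with only libraries without Y-linked transcripts were chosen after seeing the data and leave a group with 1 sample. Over all genes the count of 3050 became 1531, 1178, 417, 824, and 4 under those alternatives in the same order, with 5232 without Mcl1 KO replicate 1, 1238 without Mcl1 KO replicate 2, 1233 without WT replicate 2, and 1596 without WT replicate 3. Mcl1 Sting1 DKO against Mcl1 KO gave 0 to 2 members when 1 library was left out, Mcl1 Sting1 DKO against Sting1 KO gave 2 with DESeq2, and the average over both Sting1 backgrounds gave 1 with only libraries without Y-linked transcripts. The all-gene count of 121 in Mcl1 Sting1 DKO against Sting1 KO became 474 with DESeq2, 45 with the Y-linked covariate, 17 with only the 2 groups, and 1 to 249 when 1 library was left out, and that of 2522 for the average became 1583 with the small RNA covariate, 363 without Y-linked libraries, and 4267 without Mcl1 KO replicate 1. For the interaction, 0 became 1574 without Mcl1 KO replicate 1 and 88 without WT replicate 1. Some of these fits have fewer samples, and why the counts moved was not tested.

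The replicate numbers did not pair the samples: over 18 pairs of same-numbered libraries, deviations from the group means correlated at −0.541 to 0.251, above 0.1 in 3. With the replicate number as a block, 5 members were called in Mcl1 KO against WT and 2591 genes, and no other count of called members changed.

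Direction changed in 43 of the values of 10 members in 6 comparisons under 21 alternatives, none of them called on either side and 29 of them when 1 library was left out. With only libraries without Y-linked transcripts, the log2 difference was −0.089 for Ctsc in Mcl1 KO against WT, −0.016 for Ctsl in Mcl1 Sting1 DKO against Sting1 KO, −0.074 for Ctsb in Sting1 KO against WT, and −0.092 for Ctsz in the interaction. The Y-linked covariate gave 0.00031 for Ctsa and −0.0038 for Ctss in Sting1 KO against WT and −0.054 for Ctsz in the interaction. The small RNA covariate gave −0.091 for Ctsd and −0.10 for Ctss in Sting1 KO against WT, 0.11 for Ctsc in the average, and 0.0027 for Ctsl in the interaction. The first Mcl1 KO library alone gave −0.013 for Ctsz in Mcl1 KO against WT and 0.15 for Ctsc in the average, and the replicate block gave −0.0013 for Ctsz in Mcl1 KO against WT.

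Leaving out 1 library gave −0.11 to 0.10 for Ctsz in Mcl1 KO against WT. In Mcl1 Sting1 DKO against Mcl1 KO the ranges were −0.15 to 0.0079 for Ctsa, −0.43 to 0.026 for Ctsc, and −0.049 to 0.16 for Ctsz, and in Mcl1 Sting1 DKO against Sting1 KO −0.022 to 0.14 for Ctsb, −0.014 to 0.23 for Ctsl, and −0.040 to 0.098 for Ctsz. In Sting1 KO against WT they were −0.0037 to 0.11 for Ctsd, −0.33 to 0.28 for Ctsk, −0.070 to 0.11 for Ctss, and −0.037 to 0.075 for Ctsz. The average gave −0.20 to 0.12 for Ctsc and −0.040 to 0.065 for Ctsz, and the interaction −0.11 to 0.059 for Ctsa and −0.075 to 0.14 for Ctsz. Depth limits Ctse, with 4 to 18 reads per library.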
